A study of Mus musculus with 12 samples.

Results

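The mouse microRNAs (miRNAs, which guide the silencing of messenger RNAs) numbered miR-297, miR-466, miR-467 or miR-669 are encoded largely in a repeat cluster within the gene Sfmbt2. Members were taken by name: every entry of the array whose name starts with 1 of these numbers, star strands included, which gave 39 of 611 mouse miRNAs. There were 3 entries of miR-297, 14 of miR-466, 10 of miR-467 and 12 of miR-669. The family was chosen by measured values of these data, namely the higher signal of several members in lithium-treated than in untreated cells. The contrast of lithium with preadipocytes, and every contrast that holds the lithium arrays, is therefore described below with no test.

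All samples were of 3T3-L1, a line of mouse fibroblasts committed to the fat lineage that becomes adipocytes under hormonal induction, and each of 4 groups had 3 arrays. Preadipocytes were the untreated cells. MDI cells, labelled mature adipocytes, received 3-isobutyl-1-methylxanthine, dexamethasone and insulin for 3 days after confluence, then insulin alone for 2 days and plain medium for 2 days, with day 7 as the end. Lithium cells were preadipocytes given lithium chloride at 25 mM, which the submitters used to activate WNT signalling, and lithium plus MDI cells were given lithium and MDI. A schedule is given only for MDI in the sources used here, so time in culture may differ between groups. All groups are 1 cell line, and separate cultures are not stated for the samples of a group, so the p-values below reflect a spread between samples that may be technical. In such bulk samples, fewer cells holding a miRNA and less of it per cell cannot be told apart.

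Sfmbt2 encodes a Polycomb group protein and is expressed from the paternal allele in the mouse placenta. An intron of the gene carries a long tandem array of miRNA hairpins that is particular to rodents, and its products are known from embryonic stem cells, trophoblast and placenta. Hairpins of this type are built from long runs of alternating C and A on 1 arm and U and G on the other, so that mature members resemble each other and also resemble simple repeats. A miRNA selects its targets mainly through its seed, bases 2 to 8 from the 5′ end, so members that share a repeat can still differ in seed.

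Mature sequences are shown because, of the few members whose sequence could be read, those that were detected carry CA repeats and those that were not carry UG repeats. RefSeq (build GRCm38.p6) held a mature entry for 5 of the 39 members, and the other 34 are given by name only. The array's miR-466i was matched to the entry miR-466i-3p, although the array names no arm. Each sequence is written 5′ to 3′ with the seed in capitals.
miR-466i, chr13:17747552-17747573, plus strand: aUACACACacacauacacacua
miR-467f, chr11:69635419-69635439, minus strand: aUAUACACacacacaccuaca
miR-467g, chr5:34732872-34732892, minus strand: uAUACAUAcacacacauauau
miR-466j, chr10:60960802-60960824, plus strand: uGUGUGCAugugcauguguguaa
miR-466k, chr3:85467396-85467418, plus strand: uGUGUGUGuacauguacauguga
The first 3 hold runs of alternating C and A of 11, 12 and 9 bases, and the other two hold runs of alternating U and G of 7 and 9 bases. miR-466i and miR-467f share the 13-base run auacacacacaca, and each shares the 11 bases auacacacaca with miR-467g. None of the 5 seeds equals another, and each occurs in 1 of the 1679 mature entries of the RefSeq table. That table held no entry for the other 34 members, so a seed shared with 1 of them could not be seen. Of these 5 members, miR-466i and miR-467f were tested, miR-467g was detected on 1 array, and miR-466j and miR-466k on none. The repeat type of the other 34 members was not read here.

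The label of the family was checked against the gene positions. By RefSeq gene names, 29 members had all their gene copies inside the span of Sfmbt2, 3 (miR-297a*, miR-466f-3p and miR-466f-5p) had copies inside and outside it, and 2 (miR-466a-3p and miR-466a-5p) matched no gene by name. The other 5, miR-466i, miR-466j, miR-466k, miR-467f and miR-467g, lay outside it only. Of those, miR-466i overlapped the span of Cdk13, a cyclin-dependent kinase that acts in transcription, miR-467f that of Fxr2, an RNA-binding protein, and miR-467g that of Grk4, a receptor kinase. Exons and introns were not checked. The family as named is thus not wholly a product of the Sfmbt2 locus, and 2 of its 5 tested members, miR-466i and miR-467f, lie elsewhere.

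The arrays lay on 2 slides: preadipocytes 1 to 3 and MDI 1 on slide 1, and the other 8 arrays on slide 2. No slide holds preadipocyte arrays together with lithium or lithium plus MDI arrays, so slide and group cannot be told apart in those contrasts. Each array detected between 126 and 178 mouse miRNAs, and the median background-subtracted signal of negative controls was 3.44 to 4.66 scanner units on slide 1 and 1.35 to 3.37 on slide 2. On average, 6 of the 12 arrays correlated better with the arrays of another group: MDI 1, all 3 lithium plus MDI arrays, preadipocytes 3 and lithium 1. Those with the lowest correlation with their own group were preadipocytes 3, lithium 1 and lithium plus MDI 3 (0.939, 0.942 and 0.924, against 0.957, 0.960 and 0.965 with the other group), and results are also given without these 3. Lithium plus MDI 2 was close to them (0.944 against 0.966) and was kept. All 6 fibroblast markers were detected, while of 23 markers of epithelium, muscle, blood, neural tissue, liver and endothelium only miR-205 and miR-128 were detected on any array. The neural marker miR-128 read 26.4 to 48.2 scanner units in preadipocytes, 12.04 to 16.0 in MDI, 8.09 to 11.3 in lithium and 19.2 to 28.2 in lithium plus MDI, and the summed intensity of its 5-member list ran from 22.6 to 40.5, 7.29 to 13.0, 1.95 to 12.7 and 16.8 to 27.4 in the same order. It was thus lowest in lithium, where several family members were highest, and its part in the results was not tested.

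A miRNA counted as detected on an array when most of the spots of its brightest probe were well above background, and 10 of the 39 members (25.6%) were detected on at least 1 array, against 205 of all 611 mouse miRNAs (33.6%). They were 3 of miR-466, 3 of miR-467, 4 of miR-669 and none of miR-297. No member was detected on all 12 arrays. The lithium arrays detected 5, 5 and 9 members, the preadipocyte arrays 2, 1 and 6, the MDI arrays 3, 1 and 2, and the lithium plus MDI arrays 1, 4 and 5. Lithium 3 and preadipocytes 3 thus held the most members in their groups. The epithelial marker miR-205 was detected on those same arrays and on lithium 2, at 81.3, 27.1 and 60.3 scanner units, and read 0.167 on lithium 1. The other 5 epithelial markers were detected nowhere, and the summed intensity of all 6 ran from -12.0 to 20.5 in preadipocytes, -11.2 to -4.18 in MDI, -8.42 to 76.7 in lithium and -6.84 to 0.463 in lithium plus MDI. The part of such cells in the counts was not tested.

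Signals are given below as background-subtracted intensity in scanner units and as normalized log2 signal, which is relative to each array's 75th percentile over probes detected on all arrays. Normalized values stop at a floor of -4.97, where values have no order. Because of the scaling, this floor stood at 16.1 to 24.9 scanner units on preadipocyte arrays and at 8.45 to 15.2 on the other arrays. The test took in 157 miRNAs that some group detected on each of its 3 arrays, 5 of them members: miR-466f-3p, miR-466g, miR-466i, miR-467f and miR-669f. Of these, 3 (miR-466g, miR-466i and miR-466f-3p) entered through the lithium arrays alone, so that they had to be high there. miR-669f entered through the lithium and lithium plus MDI arrays, as it was detected on 1 of 3 preadipocyte and 2 of 3 MDI arrays. Of the 60 values of the 5 members, 15 were at the floor.

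miR-466f-3p, the 3′ arm of a hairpin with copies inside and outside Sfmbt2, was higher on the lithium arrays than elsewhere. Its intensity was 49.98, 55.6 and 64.7 on the lithium arrays, against 21.1, 17.3 and 30.0 in preadipocytes, 24.2, 14.1 and 14.7 in MDI, and 11.8, 17.0 and 38.8 in lithium plus MDI. Each lithium array was thus above all 9 others, and lithium plus MDI 3, an array that stood apart, was the highest of those. On the normalized scale miR-466f-3p was 2.01 log2 units (SE 0.35) higher in lithium than in preadipocytes, a 4.02-fold difference, and 1.48 lower in lithium plus MDI than in lithium, a signed difference of -1.48. Without the 3 arrays that stood apart these differences were 1.99 and -1.74.

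miR-466i, encoded outside Sfmbt2, followed the same course. Its intensity was 35.8, 36.3 and 46.1 in lithium, 14.2, 9.33 and 19.9 in preadipocytes, 17.6, 10.3 and 12.3 in MDI, and 9.49, 11.3 and 25.6 in lithium plus MDI. Again the lithium arrays did not overlap the other 9. All 3 preadipocyte values were at the normalized floor, so the normalized difference of 1.70 (SE 0.31) depends on it, and only 1 preadipocyte array detected the miRNA, so no fold is given. Lithium plus MDI was lower than lithium by a signed difference of -1.40.

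miR-467f, likewise of CA type and encoded outside Sfmbt2, was the member detected most widely, on 10 of 12 arrays and on all 3 preadipocyte arrays. It read 39.2, 39.1 and 53.3 scanner units in lithium, 23.6, 23.0 and 29.4 in preadipocytes, 29.7, 17.7 and 22.0 in MDI, and 14.4, 19.7 and 30.5 in lithium plus MDI. The normalized difference between lithium and preadipocytes was 1.48 (SE 0.31), or 2.78-fold, and that between lithium plus MDI and lithium was -1.05. Its lithium arrays stood above all others in intensity, but MDI 1 lay within the lithium range on the normalized scale, at -3.15 against -3.39 to -2.96.

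miR-466g, encoded inside Sfmbt2, was also higher in lithium, at signals near background in the other groups. Its intensity was 20.5, 20.2 and 37.4 in lithium, 3.28, 5.23 and 17.2 in preadipocytes, 8.94, 2.65 and 2.38 in MDI, and 1.42, 2.97 and 17.8 in lithium plus MDI. The groups did not overlap, although preadipocytes 3 and lithium plus MDI 3 came close to the lowest lithium array. The normalized difference from preadipocytes was 1.05 (SE 0.25), with all preadipocyte values at the floor and 1 of 3 preadipocyte arrays detecting it, so no fold is given. From lithium to lithium plus MDI the difference was -0.97.

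**Figure D1:**
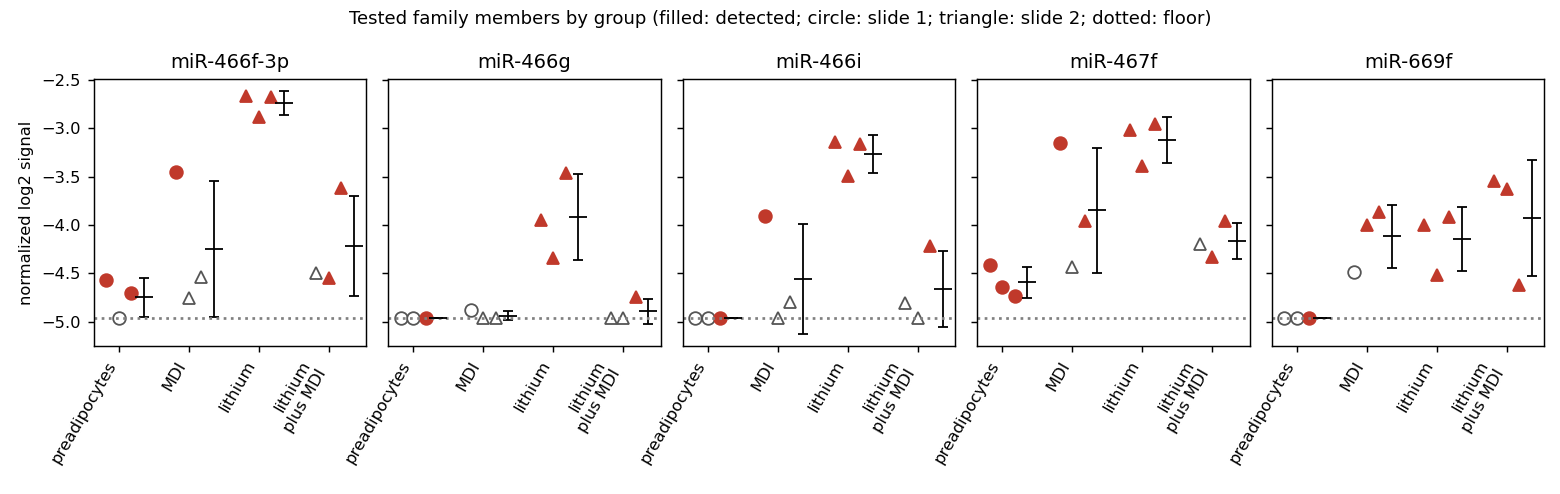
Normalized log2 signal (vertical axis, relative to each array's 75th percentile) of the 5 tested members on each array by group, with group means and SD as bars. Filled symbols are detected, circles are slide 1, triangles slide 2, and the dotted line is the floor at -4.97. miR-466g, miR-466i and miR-466f-3p are highest on the 3 lithium arrays, miR-467f reaches the lithium range on MDI 1, and miR-669f is off the floor in all groups but preadipocytes.

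Across the 5 tested members, lithium and preadipocytes did not overlap on the normalized scale for any, all being higher, where 17.2% of the 157 tested miRNAs were higher and 12.7% lower without overlap. In unscaled intensity, miR-466f-3p, miR-466g, miR-466i and miR-467f still did not overlap, and miR-669f did. Between lithium and lithium plus MDI, the first 4 were lower in lithium plus MDI without overlap, against 7.64% of tested miRNAs, and none was higher, against 26.1%. The members' median difference was 1.48 between lithium and preadipocytes, beside -0.07 over all tested miRNAs, and -1.05 between lithium plus MDI and lithium, beside 0.39. Because the first contrast proposed the family and the second shares its lithium arrays, these counts describe the choice and are no support for it. The size of the lithium difference depended on the processing. With normexp correction of the raw signals it was 0.22 for miR-466f-3p, -0.08 for miR-466g, 0.10 for miR-466i, 0.04 for miR-467f and -0.26 for miR-669f. All tested miRNAs then had a median of -0.36. That correction added an offset of 50 to each signal, which draws differences between low signals toward 0, and members reached at most 64.7 scanner units. The part of the offset in these values was not tested. With no scaling between arrays the lithium difference was 1.35, 0.69, 1.27, 0.79 and 0.28 in the same order, beside a median of -0.69. The MDI difference with lithium minus that without it was -1.98 (SE 0.50) for miR-466f-3p, -1.001 (SE 0.36) for miR-466g, -1.81 (SE 0.43) for miR-466i, -1.79 (SE 0.44) for miR-467f and -0.63 (SE 0.45) for miR-669f.

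Slide 2 holds lithium beside 2 MDI and 3 lithium plus MDI arrays. Within it, the lowest lithium intensity of miR-466f-3p was 49.98 against at most 38.8 on the other 5 arrays. The same values were 35.8 against 25.6 for miR-466i, 39.1 against 30.5 for miR-467f and 20.2 against 17.8 for miR-466g. Lithium was thus above every other array of its own slide for all 4. These 4 were set together after their lithium values were seen, so this describes the choice, and the part of the slide was not tested. MDI 1, the only MDI array on slide 1, was the highest MDI array for these 4 members, and for miR-466f-3p it reached -3.45 against -4.76 and -4.54 on slide 2. With slide as a block, a fit that sets the slide difference through the MDI arrays alone, lithium minus preadipocytes was 3.21 for miR-466f-3p, 2.67 for miR-466i, 2.52 for miR-467f and 1.13 for miR-466g. On lithium 1, an array that stood apart and lacked miR-205 signal, miR-466f-3p stood at -2.66, beside -2.88 and -2.68 on the other lithium arrays. This is 1 member on 1 array, and the part of epithelial cells in these values was not tested.

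The array carries several probes for each of these members, and the differences were read on all of them. miR-466f-3p and miR-466g have 4 probes each, and miR-466i and miR-467f have 2 each. All 12 probes were brighter on every lithium array than on every preadipocyte array, and 11 of 12 were dimmer on every lithium plus MDI array than on every lithium array. The exception was 1 of the dimmer probes of miR-466g. By brightest probe, 160 of all 611 mouse miRNAs were higher and 105 lower in the first way, and 34 were lower and 65 higher in the second. Probes of 1 miRNA read the same samples, and the 4 members were set together after their values were seen, so these counts are no support for the choice. Normalized differences were smaller on dimmer probes: they ran from 0.08 to 2.01 over the 4 probes of miR-466f-3p, where the floor takes most values of the dimmest.

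**Figure D2:**
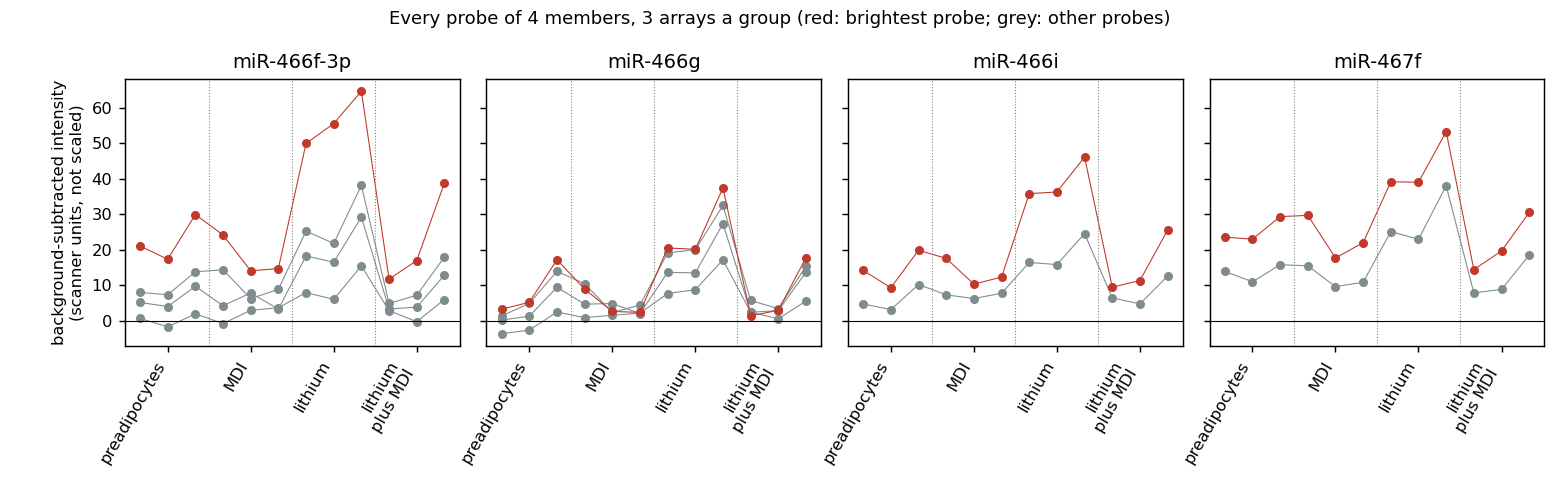
Background-subtracted intensity (scanner units, not scaled) of every probe of miR-466f-3p, miR-466g, miR-466i and miR-467f on the 12 arrays, 3 a group, with the brightest probe in red and the others in grey. Lines join the arrays of 1 probe for the eye only. Probe means run from -1.25 to 25.3 in preadipocytes and from 9.83 to 56.8 in lithium.

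miR-669f, encoded inside Sfmbt2, had another profile: on the normalized scale only, it was low in preadipocytes alone. Its intensity was 8.63, 14.2 and 24.9 in preadipocytes, 11.8, 23.8 and 23.4 in MDI, 19.8, 17.9 and 27.4 in lithium, and 22.7, 32.1 and 19.3 in lithium plus MDI, so that groups overlapped before scaling. On the normalized scale the preadipocyte arrays were at or next to the floor (-4.97 each) and all other arrays were above it. The floor was higher in scanner units on preadipocyte arrays, so 24.9 on preadipocytes 3 lay next to it and 11.8 on MDI 1 above it. This profile thus depends on the scaling. Lithium exceeded preadipocytes by 0.82 (SE 0.32) and lithium plus MDI exceeded lithium by 0.21. miR-669a, a member known for repressing the muscle regulator MyoD, read 5.22, 12.9 and 16.1 in preadipocytes, 6.15, 12.4 and 9.13 in MDI, 6.31, 8.69 and 8.74 in lithium, and 14.0, 19.3 and 5.56 in lithium plus MDI. It was detected only on preadipocytes 3 and lithium plus MDI 2, and its lithium arrays were not raised.

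The other 4 detected members were each detected on lithium 3 alone. miR-467a* read 11.4, 8.99 and 19.9 scanner units in lithium against 2.85 to 10.2 in preadipocytes. miR-669c read 6.92, 10.0 and 17.1 in lithium against 2.49 to 13.9. miR-669h-3p read 7.81, 8.90 and 14.4 against 0.108 to 4.69, and miR-467g, the CA-type member with the shortest repeat, 4.54, 4.40 and 12.5 against -2.09 to 3.85. Lithium and preadipocytes overlapped for miR-467a* and miR-669c and did not for miR-669h-3p and miR-467g, all at signals where detection mostly failed.

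Over the 12 arrays, the scaled signals of miR-466f-3p, miR-466g, miR-466i and miR-467f correlated with each other at r = 0.875 to 0.994 (6 pairs). With miR-669a or miR-669f they correlated at -0.393 to 0.216 (8 pairs), while miR-669a and miR-669f correlated at 0.792. These are descriptions over 12 arrays that share groups, slides and the scaling, and the first 4 were set together after their values were seen. Members of such near-identical sequence may share probes in part, and whether the 4 profiles are separate measurements was not tested, as probe sequences were not used here.

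**Figure D3:**
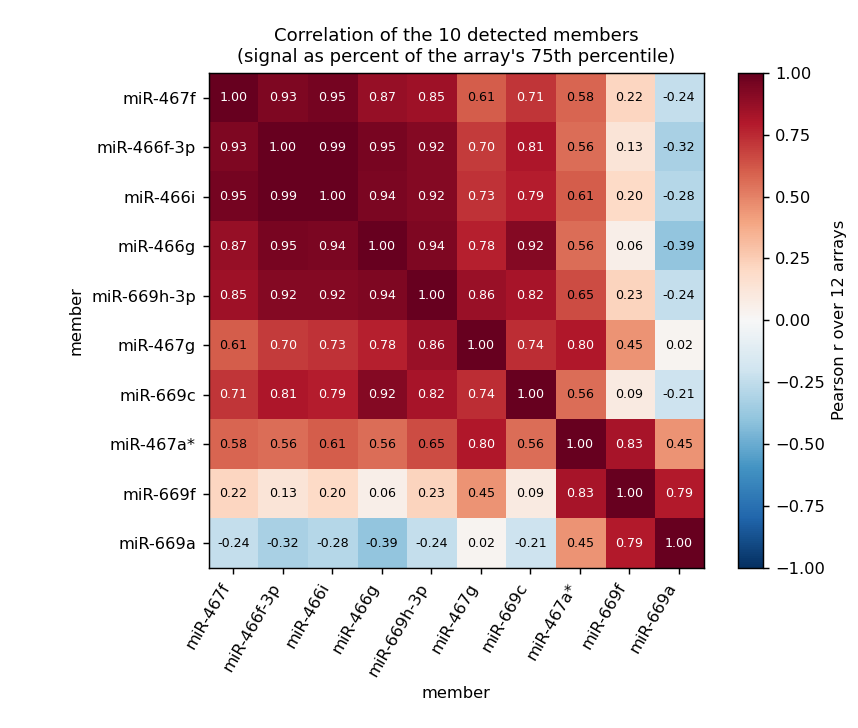
Pearson correlation over the 12 arrays between the 10 detected members, from signal as a percent of each array's 75th percentile (colour and number). miR-467f, miR-466f-3p, miR-466i and miR-466g form a block of 0.875 to 0.994, and miR-669f pairs with miR-669a at 0.792.

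The remaining 29 members were detected on no array: all 3 of miR-297, 11 of miR-466 with miR-466a, miR-466b-5p, miR-466h and miR-466l among them, 7 of miR-467 and 8 of miR-669. Their mean intensities ran from -4.29 to 5.62 scanner units and were below 0 for 16, and single values ran from -6.85 to 13.5. Nearest to detection were miR-466a-3p, with 13.5 on lithium plus MDI 2, and miR-467b*, with 13.3 on lithium 3. Taken with no detection filter and no floor, as percent of each array's 75th percentile, 21 of 39 members (53.8%) were higher in lithium than in preadipocytes without overlap and 2 were lower. Over all 611 mouse miRNAs 22.9% were higher and 5.56% lower in that way. Among the 29 undetected members 12 were higher in this way (41.4%), against 24.9% of the 406 mouse miRNAs detected on no array. In unscaled intensity these counts were 12 of 29 and 150 of 406. From lithium to lithium plus MDI, 11 of 39 members (28.2%) were lower without overlap against 5.73% of all 611, and of the 29 undetected, 4 (13.8%) against 4.68%. Without scaling, the undetected counts were 2 of 29 and 23 of 406. Both contrasts hold the lithium arrays that proposed the family, so these counts describe the choice and are no support for it. The median difference of the 39 members was 0.617 percent of the 75th percentile between lithium and preadipocytes, beside 0.238 for all mouse miRNAs. On the same scale, MDI was higher than preadipocytes without overlap for 6 members and lower for 1, against 14.1% and 7.36% of all mouse miRNAs. Lithium plus MDI was higher than MDI for 2 members and lower for none, against 10.6% and 0.655%, and higher than preadipocytes for 12 and lower for none, against 21.8% and 1.96%.

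**Figure D4:**
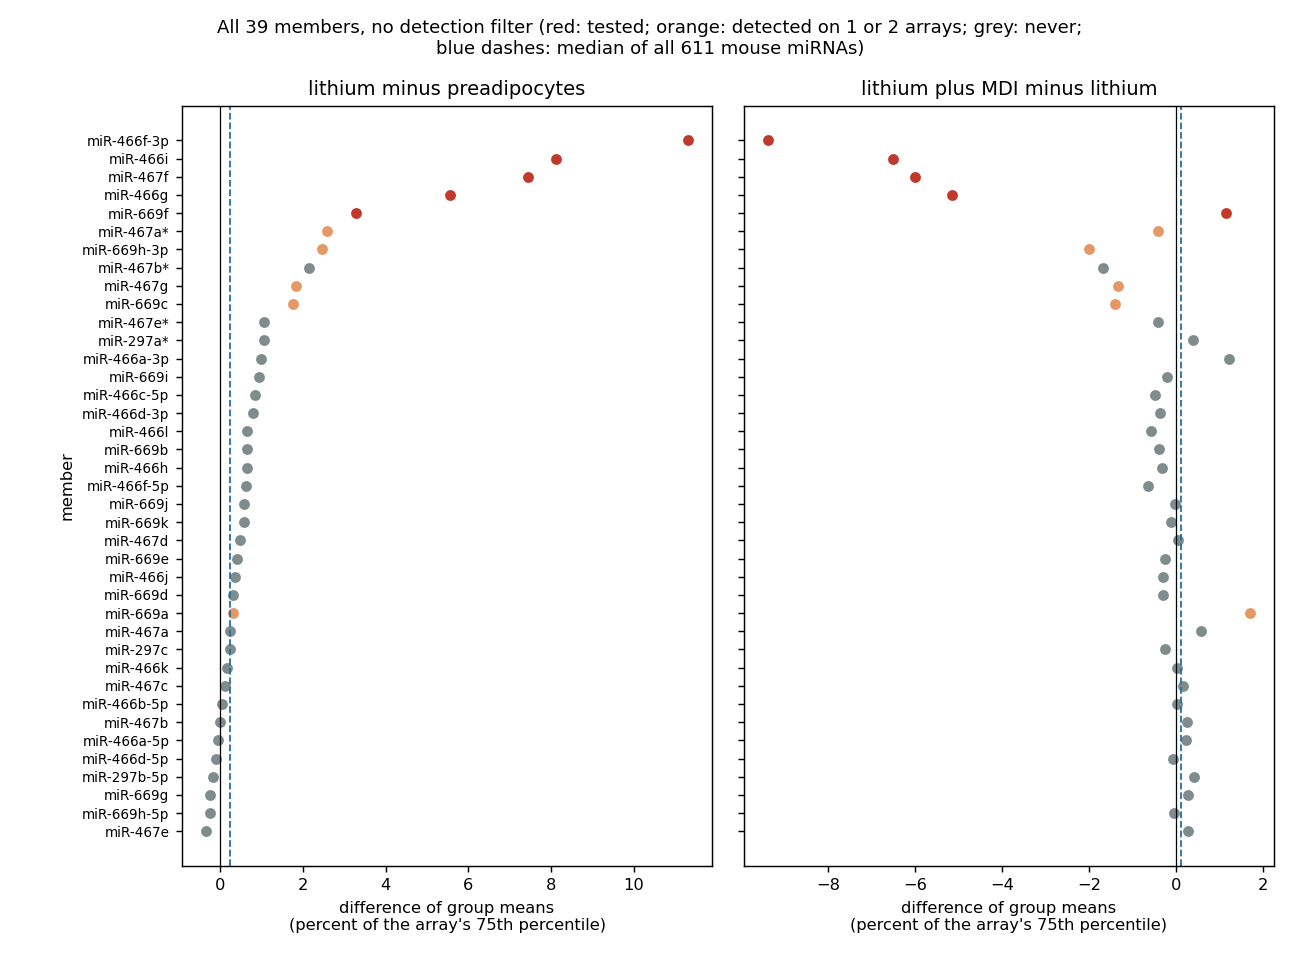
Difference of group means for all 39 members in percent of the array's 75th percentile, lithium minus preadipocytes (left) and lithium plus MDI minus lithium (right). Red points are tested members, orange points were detected on 1 or 2 arrays, grey points never, and blue dashes mark the median of all 611 mouse miRNAs (0.238 and 0.113). The 4 members that lead on the left, miR-466f-3p, miR-466i, miR-467f and miR-466g, are also the 4 lowest on the right. The same lithium means enter both panels with opposite sign, so this mirrored order is in part fixed in advance.

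Whether members changed during differentiation was asked with MDI against preadipocytes, which shares the preadipocyte arrays with the contrast that proposed the family. No member passed limma's moderated test at an adjusted p (Benjamini-Hochberg over 157 miRNAs) of 0.05, where 3.18% of tested miRNAs did. The nearest was miR-669f, 0.85 higher in MDI (SE 0.32, adjusted p = 0.162), with groups that did not overlap, as for 15.9% of tested miRNAs in that direction and 10.8% in the other. miR-467f was 0.75 higher (SE 0.31, adjusted p = 0.203), and its groups overlapped. Both had an unadjusted p under 0.05, miR-669f at 0.0186 and miR-467f at 0.0311, as did 15 of all 157 miRNAs in that direction and 13 in the other. miR-466f-3p was higher by 0.50 (adjusted p = 0.437), miR-466i by 0.41 (0.442) and miR-466g by 0.03 (0.933). Without MDI 1 the differences of miR-467f and miR-466f-3p were 0.40 and 0.10, and with no scaling these 2 were lower in MDI, at -0.15 and -0.36. With normexp correction and its offset of 50 all 5 signs turned. All preadipocyte arrays were on slide 1, where MDI 1 was the only MDI array. With slide as a block the MDI difference therefore rests on MDI 1. It was then 0.48 for miR-669f, 1.44 for miR-467f, 1.30 for miR-466f-3p, 1.06 for miR-466i and 0.08 for miR-466g. The part of the slide was not tested.

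Lithium plus MDI against MDI asked whether lithium altered the members in cells given MDI, and it shares no array with the contrast of lithium and preadipocytes. No member passed limma's test, nor did any other miRNA (0%), with 6 of 157 at an unadjusted p under 0.05, none of them a member. The differences were 0.03 for miR-466f-3p (SE 0.35), 0.05 for miR-466g (SE 0.25), -0.11 for miR-466i (SE 0.31), -0.32 for miR-467f (SE 0.31) and 0.19 for miR-669f (SE 0.32), with adjusted p from 0.821 to 0.996 and overlapping groups throughout, where 11.5% of tested miRNAs were higher and 0.637% lower without overlap. The normalized means of miR-466f-3p were -4.25 in MDI and -4.22 in lithium plus MDI, where lithium alone gave -2.74 and preadipocytes -4.75. A lithium difference of the size described in untreated cells was therefore not seen beside MDI for the 4 members, and these SEs leave room for smaller ones. Of the 3 MDI arrays, 1 detected miR-466f-3p, 1 miR-466i, 0 miR-466g and 2 miR-467f. Values at the floor also lower the spread, so the SEs may be too small. For each of the 5 members the sign of this small difference turned under at least 1 other scaling, background, value or slide setting.

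Lithium plus MDI against preadipocytes, which shares the preadipocyte arrays with the proposing contrast, gave no called member either, where 1.27% of tested miRNAs were called. miR-669f was 1.03 higher in lithium plus MDI (SE 0.32, unadjusted p = 0.00595 and adjusted p = 0.156 by limma). miR-466f-3p was 0.53 higher (adjusted p = 0.440), miR-467f 0.43 (0.447), miR-466i 0.30 (0.570) and miR-466g 0.08 (0.916). These 4 were lower under at least 1 other scaling or background setting, as was miR-669f with normexp correction alone (-0.17). For miR-466f-3p, miR-467f and miR-669f, 3 of the 5 members, lithium plus MDI was higher without overlap, where 14% of tested miRNAs were, and none was lower in that way, where 3.82% were. The outcome for miR-669f changed with lithium plus MDI 3, where its value was -4.62 against -3.55 and -3.63 on the other two. Without that array, limma gave 1.38 with adjusted p = 0.00532 against preadipocytes, and 0.85 with adjusted p = 0.0374 for MDI against preadipocytes, a contrast that uses that array only through the spread shared by all groups. Because miR-669f entered the test through the lithium and lithium plus MDI arrays, the filter favours a high value in lithium plus MDI. With all arrays kept, the scanner's total signal in place of the brightest probe also gave calls, at 1.22 with adjusted p = 0.0438 and at 1.19 with adjusted p = 0.0334. The preadipocyte values behind these differences were at or next to the floor, and in unscaled intensity all groups of miR-669f overlapped. No slide holds arrays of both preadipocytes and lithium plus MDI, so slide and group cannot be told apart in this contrast. With slide as a block, which sets the slide difference through the MDI arrays alone, miR-669f was 0.49 higher. The other members were then 1.73 (miR-466f-3p), 1.47 (miR-467f), 1.27 (miR-466i) and 0.16 (miR-466g) higher.

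The tested miRNAs outside the family were ranked by correlation with the mean of the 5 tested members over the 12 arrays, and the 5 most alike were miR-574-3p (r = 0.960), miR-1187 (0.852), miR-1196 (0.828), miR-193 (0.785) and miR-192 (0.758). The median over the 152 candidates was -0.12. The first was at the floor in preadipocytes (-4.97 on all 3) and at -3.50 ± 0.38 (SD, n = 3) in lithium, -4.71 ± 0.45 in MDI and -4.62 ± 0.41 in lithium plus MDI. miR-1187 was likewise at the floor in preadipocytes and at -3.75 ± 0.12 in lithium. Lithium minus preadipocytes was 1.07 for miR-1196, 2.49 for miR-193, which was detected on all 12 arrays, and 0.75 for miR-192. Lithium plus MDI minus lithium was -0.9997, -1.85 and -0.65 in the same order. The RefSeq sequences of miR-574-3p and miR-1187 are shown because both carry repeats like those of the family.
miR-574-3p, chr5:64970364-64970385, plus strand: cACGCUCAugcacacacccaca
miR-1187, chr5:82798964-82798986, minus strand: uAUGUGUGuguguauguguguaa
miR-574-3p has a 7-base run of alternating C and A and shares cacacacc with miR-467f, while miR-1187 has an 11-base run of alternating U and G and shares ugugugugua with miR-466k. Neither shares a seed with another sequence shown here.

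Because of that likeness, the repeat-type miRNAs outside the family whose mature sequence could be read were examined. The motifs CACACA or ACACAC occurred in 17 of 1679 mature RefSeq entries (1.01%) and GUGUGU or UGUGUG in 32 (1.91%), searched on the mature strand, with overlapping matches counted once. Only 162 entries matched the exact name of 1 of the 611 mouse miRNAs on the array. The repeat type of other miRNAs outside the family was not read. Of the 162, 8 outside the family held 1 of these motifs and 5 were detected. miR-574-3p (CA type) and miR-1187 (UG type) were higher in lithium than in preadipocytes without overlap, by 1.47 (SE 0.31) and 1.22 (SE 0.27), and lower in lithium plus MDI than in lithium, at -1.12 and -0.82. miR-574-5p (UG type) was detected on all 12 arrays, read 81.8 to 95.1 scanner units in lithium against 124 to 138 in preadipocytes, and differed by 0.08 (SE 0.28) on the normalized scale. miR-342-3p (CA type), also detected on all 12, was lower in lithium than in preadipocytes by a difference of -0.80 (SE 0.38), with overlapping groups. miR-362-3p (CA type) was detected on 2 arrays and at the floor in lithium and preadipocytes. A repeat motif thus went with the lithium profile in some miRNAs and not in others, and with this few no comparison was made.

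The family is known from early embryonic cells, so a list of other early embryo miRNAs, the miR-290 to miR-295 cluster and the miR-302 cluster, was examined beside it. Of 22 listed, 21 were on the array, 2 were detected (miR-290-3p on 4 arrays and miR-291b-5p on 2) and 1 was tested. None of the list was called in any of the 3 tested comparisons. miR-290-3p read 11.5, 12.3 and 13.8 scanner units in lithium against 10.3, 13.3 and 14.1 in preadipocytes, so the groups overlapped in unscaled intensity. The 75th percentile used for scaling was 503 to 780 units in preadipocytes and 316 to 414 in lithium. As percent of the 75th percentile, with no floor, each lithium array was above each preadipocyte array. On the normalized scale the preadipocyte arrays were at the floor. So was lithium 2, at 12.3 scanner units where its floor stood at 13.1. All these signals were thus near the floor. The family was chosen by this contrast, so no comparison of the list with its members was made.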

How the data were processed

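Total RNA (0.5 ug a sample) was labelled with Cy3 and hybridised to Agilent single-colour mouse miRNA arrays, per the labels' protocols. The authors deposited scanner files with intensity per spot, background-subtracted by Agilent Feature Extraction but not scaled across arrays, per the file headers (version 10.5.1.1 in the headers, 9.5.3 in the submitters' processing notes). The authors also deposited a value table, read as log2 because its columns correlated at 0.997 or above with the logged total signal of the scanner files, with its centring and treatment of low signals unknown; it served as an alternative only.

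Outlier spots were left out, spots averaged per probe, each array scaled to its 75th percentile, taken from the 181 mouse probes that every array detected, a floor set at the 5th percentile of detected values (-4.97 on the log2 scale) and log2 taken. A miRNA was its brightest probe. limma 3.58.1 in R 4.3.3 was fitted to 157 miRNAs over all 12 arrays as 4 group means, two-sided, with Benjamini-Hochberg adjustment, a threshold of 0.05 and no block, and checked on simulated data. The number of arrays limits the precision: the median SE of a difference was 0.335. Deviations of same-numbered arrays of different groups correlated from -0.48 to 0.47, with 9 of 18 pairs above 0.1, so the numbers were not taken to pair samples over the design. Only between preadipocytes and lithium plus MDI were all 3 pairs above 0.1 (0.159, 0.313 and 0.401); there the replicate block changed no call. Members, lists and the rule for named miRNAs (every member detected on at least 1 array, and the 5 non-members most alike the tested members) were chosen with earlier results of these data known. Sequences and gene spans came from RefSeq tables of GRCm38.p6; no genome was used. Figures were drawn with matplotlib 3.10.9. Alternatives covered scaling, background, floor, probe summary, filter, block, slide and left-out arrays. The background alternative was limma's normexp on raw median signals with an offset of 50, which draws differences between low signals toward 0.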

Additional observations from a re-analysis of the deposited data

Results flagged for a closer look

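The differences of miR-467f had opposite signs with and without the other treatment. The MDI difference was 0.75 without lithium and -1.05 with it, a difference of -1.79 (SE 0.44). The lithium difference was 1.48 without MDI and -0.32 with it, which is the same -1.79. In each case every array of the 1 group lay on 1 side and every array of the other on the opposite side of its control mean. Of the opposing differences, 0.75 and -0.32 did not pass limma's test (adjusted p = 0.203 and 0.821). The first was -0.15 with no scaling and -0.10 with normexp correction, and the second was 0.030 without MDI 1 and with slide as a block, so the opposite signs depended on these settings. The difference was not tested, because the lithium arrays had already served to propose the family.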

How the results depend on the processing

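Of 1060 values under 28 alternatives, 889 kept their direction and side of the threshold or moved by less than the spread, 112 moved further, 53 reversed, 6 passed the threshold newly and 0 lost it. The sign of lithium minus preadipocytes was kept in all 27 alternatives for miR-466f-3p, miR-466i and miR-467f, and in 26 of 27 for miR-466g (normexp -0.081) and miR-669f (normexp -0.26). That of lithium plus MDI minus lithium was kept in all 28 for miR-466f-3p, miR-466g, miR-466i and miR-467f. Other scalings shifted all tested miRNAs: the median of lithium minus preadipocytes was -0.07 as reported, -0.90 with scaling by all mouse probes, -0.69 with no scaling and -0.36 with normexp. The number of members called was 1 in place of 0 with the scanner's total signal and with the 3 arrays that stood apart left out, in MDI against preadipocytes and in lithium plus MDI against preadipocytes alike. That member was miR-669f (1.19, adjusted p = 0.0334, and 0.85, adjusted p = 0.0301, by limma; then 1.22, adjusted p = 0.0438, and 1.38, adjusted p = 0.00611).

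The sign of MDI minus preadipocytes turned with scaling by all mouse probes (miR-466f-3p -0.29 and miR-467f -0.064), with quantile normalization (miR-466g -0.0092) and with no scaling (miR-466f-3p -0.36, miR-466g -0.077, miR-466i -0.060 and miR-467f -0.15). It also turned with normexp background correction (miR-466f-3p -0.18, miR-466g -0.28, miR-466i -0.14, miR-467f -0.10 and miR-669f -0.077). The sign of lithium plus MDI minus MDI turned with scaling by all mouse probes (miR-466f-3p -0.14 and miR-669f -0.051), with quantile normalization (miR-466f-3p -0.11) and with no scaling (miR-466i 0.18). It also turned with normexp background correction (miR-466f-3p -0.10, miR-466g -0.11 and miR-669f -0.089), with the mean of all probes (miR-466f-3p -0.036 and miR-466g -0.013) and with the scanner's total signal (miR-466f-3p -0.20 and miR-466g -0.052). It also turned with the authors' deposited table (miR-466f-3p -0.30 and miR-466g -0.031), with slide as a block (miR-466i 0.22 and miR-467f 0.030) and with slide 2 alone (miR-466i 0.22 and miR-467f 0.030). It also turned with the 3 arrays that stood apart left out (miR-466f-3p -0.27 and miR-466g -0.027). The sign of lithium plus MDI minus preadipocytes turned with scaling by all mouse probes (miR-466f-3p -0.42, miR-466i -0.063 and miR-467f -0.62), with quantile normalization (miR-466f-3p -0.053 and miR-467f -0.21) and with no scaling (miR-466f-3p -0.060 and miR-467f -0.28). It also turned with normexp background correction (miR-466f-3p -0.29, miR-466g -0.39, miR-466i -0.27, miR-467f -0.30 and miR-669f -0.17) and with the authors' deposited table (miR-466f-3p -0.12 and miR-467f -0.11). The median member difference of lithium minus preadipocytes was 0.84 with scaling by all mouse probes, 0.79 with no scaling, 0.039 with normexp background correction, 1.01 with the mean of all probes, 1.77 with the authors' deposited table, 0 with no detection filter (39 members), 0.54 with detection on at least 1 array (10 members) and 2.52 with slide as a block. The median member difference of lithium plus MDI minus lithium was -1.39 with quantile normalization, -0.34 with normexp background correction, -1.40 with a floor at the 1st percentile, -1.57 with the authors' deposited table, 0 with no detection filter (39 members) and -0.13 with detection on at least 1 array (10 members). The median member difference of the interaction was -1.13 with scaling by all mouse probes, -0.92 with no scaling, -0.23 with normexp background correction, -1.53 with a floor at the 10th percentile, -1.05 with the mean of all probes, -2.05 with the scanner's total signal, 0 with no detection filter (39 members), -0.39 with detection on at least 1 array (10 members) and -2.45 with slide as a block. The causes of these shifts were not tested. A filter of detection on all 12 arrays left no member. Slide as a block rests on the MDI arrays for lithium minus preadipocytes and for lithium plus MDI minus preadipocytes. For MDI minus preadipocytes it rests on MDI 1.

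With 1 array left out in turn, members called ranged from 0 to 1 in MDI against preadipocytes and in lithium plus MDI against preadipocytes, the 1 without lithium plus MDI 3, and stayed at 0 in lithium plus MDI against MDI. The median member difference ranged from 1.39 to 1.61 for lithium minus preadipocytes, from -1.19 to -0.96 for lithium plus MDI minus lithium and from -2.01 to -1.45 for the interaction, the last without MDI 1. Lithium plus MDI minus MDI ranged from -0.27 to 0.43 for miR-466f-3p, from -0.027 to 0.086 for miR-466g, from -0.33 to 0.22 for miR-466i, from -0.61 to 0.030 for miR-467f and from -0.0075 to 0.53 for miR-669f. With the replicate block, a fit with the replicate number as a block, 0 members were called in each tested comparison, the smallest adjusted p being 0.147, 0.740 and 0.178, and it changed no other call. Of 12 arrays, 4 correlated best with the same number in another group. Signals of all members reached at most 64.7 scanner units over background, so small differences in background bear on every value.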
